A study of Homo sapiens with 4 samples.

Results

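The enzymes examined here make serine and move its carbon through the folate and methionine cycles. They are 10 genes, chosen by name from the 60671 rows of the deposited table: PHGDH, PSAT1, PSPH, SHMT1, SHMT2, MTHFD1, MTHFD2, MTHFD1L, MAT2A and AHCY. All 10 were found, each as a single row, and all 10 passed the filter on low values used for the tests below. The measurements are RNA-seq of poly(A)-selected RNA from the human embryonic stem cell line H9, which was grown in mTeSR medium. They comprise 2 control libraries and 2 libraries of CFIm25 KO+ 3Flag-CFIm25 overexpression cells, called KO+OE. CFIm25, encoded by NUDT21, is a subunit of cleavage factor Im, which helps to choose the poly(A) site of a nascent transcript. The KO+OE cells carry a CFIm25 gene edited with CRISPR/Cas9 and a lentiviral 3Flag-tagged CFIm25 that puts the protein back. Per the study's methods, the CRISPR/Cas9 cultures were selected on puromycin before clones were picked. The sample titles name the control only as control H9. The paper describes the control cells of its overexpression comparison as mock controls, its name for cells given the empty CRISPR/Cas9 vector. A figure legend of the paper keeps mock control apart from control, which there means H9 cells. Whether the control libraries came from cells given the empty vector is therefore not settled. Per the study's methods and results, the line with the re-expressed protein was made from 1 edited clone (CFIm25-m3). That clone kept a shortened protein at a low level. No library of edited cells without the transgene is among those used here. Effects of the clone, of the edit and of the transgene therefore cannot be told apart. The labels call the edit a knockout for the samples and a knockdown in the series title. Nothing in the labels says that the replicates came from separate cultures, so the p-values measure only the spread between these libraries.

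Serine is made from the glycolytic intermediate 3-phosphoglycerate by PHGDH, PSAT1 and PSPH in turn. Serine hydroxymethyltransferase then passes a carbon of serine to tetrahydrofolate and leaves glycine, and the MTHFD enzymes convert the folate-bound carbon between the forms used to make purines, thymidylate and methionine. The folate reactions run in parallel in mitochondria (SHMT2, MTHFD2, MTHFD1L) and in the cytosol (SHMT1, MTHFD1), and formate carries the carbon between them. MAT2A uses methionine to make S-adenosylmethionine, the methyl donor of DNA, RNA and histone methylation, and AHCY removes the S-adenosylhomocysteine left behind. Human pluripotent stem cells are known to depend on a steady supply of methionine.

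Levels are given in TPM, the share of transcripts after division by transcript length, scaled to a common total, so that genes can be compared with each other. The 4 library totals lay between 986853 and 987078 TPM, of which genes of the mitochondrial genome took 21.0% and 21.1% in control and 21.6% and 22.1% in KO+OE. TPM keeps no read number, so the depth of the libraries is unknown. The pluripotency markers POU5F1 (2164 to 2212 TPM), LIN28A (517 to 528 TPM) and DNMT3B (216 to 225 TPM) were high in all 4 libraries. SOX2 (18.2 to 19.4 TPM) and NANOG (15.85 to 19.9 TPM), also pluripotency markers, were much lower. The lineage markers SOX17, GATA4, FOXA2, TBXT, MIXL1 and PAX6 were each listed at 0.59 TPM or less. Of 5 genes taken as fibroblast markers, COL3A1 and LUM were listed at 0.02 TPM or less. THY1 was 1228 to 1352 TPM, COL1A1 53.9 to 55.6 TPM and COL1A2 12.99 to 14.5 TPM, in both groups alike. NUDT21, the edited gene, was 161 and 152 TPM in control and 162 and 157 TPM in KO+OE, and these values do not separate RNA of the edited gene from RNA of the transgene.

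The regulatory sequence in front of 3 of the genes is shown first, because MTHFD1 (cytosolic) and MTHFD1L (mitochondrial) both enter the comparison of compartments and because PSAT1 held the most copies of the box shared by most of the enzymes. The windows run from 250 bases before to 50 bases after a start site, 5′ to 3′ on the strand of the gene, as given by RefSeq for GRCh38.p14. They are chr9:78296875-78297174 for PSAT1, chr14:64388103-64388402 for MTHFD1 and chr6:150866236-150866535 for MTHFD1L, all on the plus strand, the last being the first listed of 4 start sites. Capitals mark CCAAT in PSAT1, CACGTG in MTHFD1, and CACGTG followed by TGATGNAA in MTHFD1L.
PSAT1: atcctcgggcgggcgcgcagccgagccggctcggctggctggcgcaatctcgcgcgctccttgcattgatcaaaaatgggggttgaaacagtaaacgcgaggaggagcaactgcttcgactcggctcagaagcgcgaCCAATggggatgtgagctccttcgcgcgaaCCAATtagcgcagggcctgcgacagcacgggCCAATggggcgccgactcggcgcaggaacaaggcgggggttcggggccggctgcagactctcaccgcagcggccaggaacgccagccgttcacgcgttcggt
MTHFD1: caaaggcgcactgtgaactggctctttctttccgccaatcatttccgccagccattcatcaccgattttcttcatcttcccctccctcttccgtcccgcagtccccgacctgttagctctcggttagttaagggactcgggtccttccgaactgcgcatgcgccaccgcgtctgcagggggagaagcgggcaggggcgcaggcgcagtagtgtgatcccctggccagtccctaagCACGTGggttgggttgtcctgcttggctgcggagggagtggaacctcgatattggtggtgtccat
MTHFD1L: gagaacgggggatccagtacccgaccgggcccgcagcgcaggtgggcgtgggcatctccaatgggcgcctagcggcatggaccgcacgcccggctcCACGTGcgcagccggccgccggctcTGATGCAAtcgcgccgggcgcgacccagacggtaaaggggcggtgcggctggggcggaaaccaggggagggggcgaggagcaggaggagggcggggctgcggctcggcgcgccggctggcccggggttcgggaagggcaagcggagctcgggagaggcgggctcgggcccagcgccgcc

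RefSeq windows were matched for 8 of the 10 genes, all except PSPH and SHMT2. CCAAT, the box bound by NF-Y, was found on either strand in the first listed window of 7 of the 8, against 34.6% of all 35116 windows. AHCY was the one without it. PSAT1 held 3 copies, which begin 113, 83 and 52 bases upstream of the start site. CACGTG, the E-box bound by MYC and related factors, was in MTHFD1 and MTHFD1L only among the 8, against 7.26% of all windows, and began 15 bases upstream in MTHFD1 and 154 bases upstream in MTHFD1L. TGATGNAA, the core of the element bound by ATF4 with C/EBP partners, was in MTHFD1L only, against 3.62% of all windows. These matches describe letters, CCAAT is short, and the motifs do not overlap each other in the windows printed.

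The 10 enzymes covered a wide span of levels that was nearly the same in every library. Together they held 0.271% to 0.275% of the summed TPM of a library, between 2678 and 2713 TPM. PHGDH alone made up 44.01% to 45.30% of that sum, and PHGDH, AHCY and SHMT2 together 83.6% to 84.2%. The order from high to low was PHGDH, AHCY, SHMT2, PSAT1, MTHFD2, MTHFD1, MTHFD1L, PSPH, SHMT1 and MAT2A, and no neighbours in this order overlapped over the 4 libraries. The closest neighbours were AHCY and SHMT2, whose means differed 1.17-fold. The widest step was from SHMT2 to PSAT1, 3.60-fold. Among the 12319 genes that averaged 1 TPM or more, PHGDH ranked 118th and MAT2A, the lowest of the 10, ranked 3787th.

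**Figure D1:**
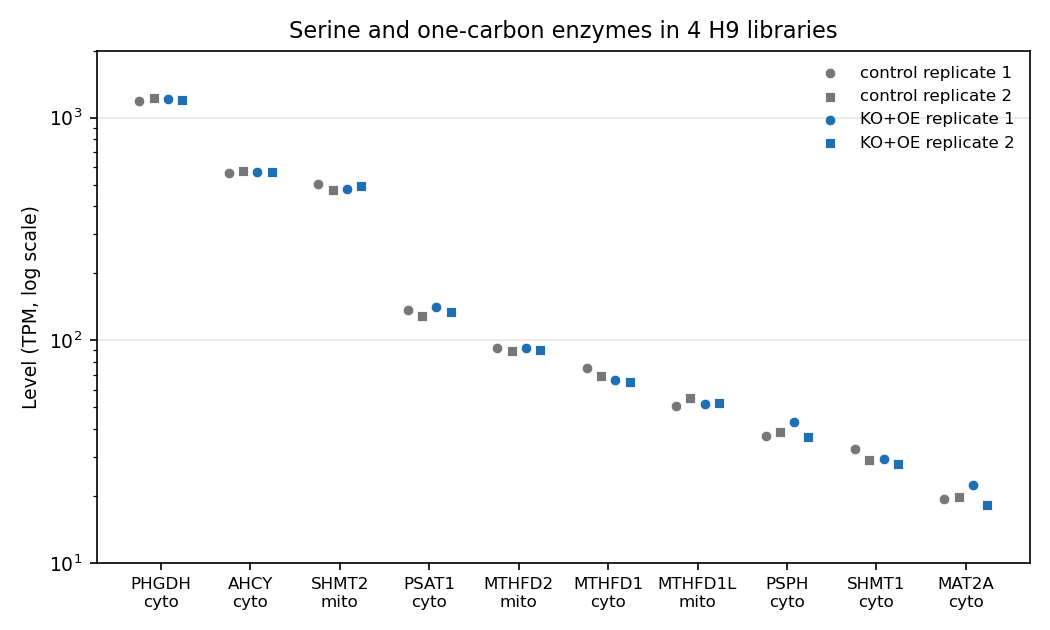
Level of each of the 10 enzymes in each library, in TPM on a log axis, ordered by mean level, with 1 point per library (grey, control; blue, KO+OE) and the compartment of the enzyme (mito, mitochondrial; cyto, cytosolic). PHGDH lies at 1189.5 TPM or more in all 4 libraries and MAT2A between 18.2 and 22.4 TPM, and the points of neighbouring genes do not overlap.

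The spread over the libraries was small for the abundant enzymes. The highest value over the lowest was 1.02 for AHCY, 1.03 for PHGDH and MTHFD2, 1.06 for SHMT2, and reached 1.17 for PSPH and SHMT1 and 1.23 for MAT2A. Its median was 1.09 over the 10 genes, 1.22 over all genes tested and 1.11 over the 5528 genes that averaged 10 TPM or more, a range of levels that includes all 10.

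The serine synthesis enzymes were examined next. PHGDH (ENSG00000092621; chromosome 1, 119711934 to 119744215 in RefSeq on GRCh38.p14) commits 3-phosphoglycerate to serine. It was 1189.5 and 1226 TPM in the control libraries and 1217 and 1196 TPM in the KO+OE libraries. Both KO+OE values lay between the control values, and the log2 fold change of 0.00 had a 95% interval from -0.07 to 0.07 (limma, adjusted p = 0.995).

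PSAT1 (ENSG00000135069; chromosome 9, 78297125 to 78330093), the transaminase of the next step, was 137 and 129 TPM in control and 140.4 and 134 TPM in KO+OE. The groups overlapped, with a log2 fold change of 0.04 (-0.08 to 0.17). PSPH (ENSG00000146733; chromosome 7, 56011064 to 56051444), the phosphatase that releases serine, was 37.25 and 38.9 TPM in control and 43.0 and 36.8 TPM in KO+OE. KO+OE replicate 1 was the highest and KO+OE replicate 2 the lowest of the 4, so the log2 fold change of 0.06 (-0.16 to 0.29) had a standard error of 0.09. The level fell along the pathway in every library: PHGDH RNA was 8.67 to 9.50 times PSAT1 RNA, and PSAT1 RNA was 3.27 to 3.67 times PSPH RNA.

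Serine is converted to glycine by a cytosolic and a mitochondrial isozyme, and RNA of the mitochondrial one was far more abundant. SHMT2 (ENSG00000182199; chromosome 12, 57229711 to 57234935) was 503 and 472 TPM in control and 478 and 492 TPM in KO+OE. Both KO+OE values again lay between those of the control. SHMT1 (ENSG00000176974; chromosome 17, 18327873 to 18363550) was 32.55 and 28.9 TPM in control and 29.1 and 27.8 TPM in KO+OE. Control replicate 1 stood above the other 3 libraries, which lay between 27.8 and 29.1 TPM. The log2 fold changes were -0.01 (-0.11 to 0.10) for SHMT2 and -0.10 (-0.31 to 0.10) for SHMT1. SHMT2 RNA was 15.5 and 16.3 times SHMT1 RNA in control and 16.4 and 17.7 times in KO+OE.

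Of the enzymes that interconvert one-carbon folates, MTHFD1 (ENSG00000100714; chromosome 14, 64388353 to 64460025), a cytosolic enzyme that carries all 3 activities of the branch, was 75.1 and 68.8 TPM in control and 66.5 and 64.8 TPM in KO+OE. It was the single enzyme of the 10 whose groups did not overlap. Its log2 fold change of -0.13 (-0.28 to 0.02) corresponded to a fold between 0.82 and 1.01 and did not pass the test (limma, adjusted p = 0.931). KO+OE values lay below both control values for 19.6% of all genes tested and above both for 14.5%, so 1 of 10 is no more than the background. The log2 fold change was -0.19 with control replicate 2 left out, where MTHFD1 passed an unadjusted p of 0.05, and -0.07 with control replicate 1 left out.

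MTHFD2 (ENSG00000065911; chromosome 2, 74198615 to 74217565), the mitochondrial dehydrogenase and cyclohydrolase that is high in embryonic and tumour cells, was 92.2 and 89.6 TPM in control and 92.6 and 90.0 TPM in KO+OE. MTHFD1L (ENSG00000120254; chromosome 6, 150865702 to 151101887), which releases formate in mitochondria, was 50.6 and 54.8 TPM in control and 51.9 and 52.0 TPM in KO+OE. The groups overlapped for both genes, and the log2 fold changes were 0.01 (-0.10 to 0.11) and -0.02 (-0.17 to 0.13). MTHFD1 and MTHFD1L, which are paralogues, were within 1.25- to 1.48-fold of each other in every library, unlike the SHMT pair.

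In the methionine cycle, AHCY (ENSG00000101444; chromosome 20, 34231981 to 34311836) was 566 and 578 TPM in control and 572 and 567 TPM in KO+OE, the least variable of the 10. On the log2 scale it differed by -0.01 (-0.08 to 0.06). MAT2A (ENSG00000168906; chromosome 2, 85539168 to 85545281), the synthetase of S-adenosylmethionine outside the liver, was 19.3 and 19.7 TPM in control and 22.4 and 18.2 TPM in KO+OE. The highest and the lowest value were both in KO+OE, and the log2 fold change was 0.04 (-0.24 to 0.33), the widest interval of the 10. AHCY RNA was 25.5 to 31.2 times MAT2A RNA, although both act in the same cycle.

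Close relatives of these enzymes were lower than the members themselves. AHCY RNA was 24.8 to 26.1 times that of AHCYL1 and 84.9 to 107.8 times that of AHCYL2, a pair of AHCY-like proteins with other functions. MAT2A RNA was 4.43 to 7.08 times that of MAT1A, the liver isozyme, and 1.57 to 1.76 times that of MAT2B, the regulatory subunit. MTHFD2 RNA was 50 to 87 times that of its mitochondrial relative MTHFD2L, which was at 1.80 TPM or less.

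Of the 10 genes, none passed an adjusted p of 0.05 in limma and 0 passed an unadjusted p of 0.05. Over all genes tested, 0.00812% (1 of 12319) passed the first and 5.33% (656) the second. The adjusted p-values of the 10 ran from 0.931 to 0.995. The log2 fold change was above 0 for 4 genes and below 0 for 6, with a median of 0.00 against -0.01 over all genes tested, and the median size without its sign was 0.03 against 0.08. Over the 5528 genes averaging 10 TPM or more, as all 10 did, that size was 0.05. With the genes of the mitochondrial genome removed before scaling, 0 of the 10 passed either threshold and MTHFD1 was at -0.11. The sign for PHGDH, SHMT2 and AHCY, at -0.01 to 0.00, depended on how the libraries were scaled. The 95% intervals of all 10 genes lay within 2-fold in either direction, as did those of 11409 of the 12319 genes. The widest, for MAT2A, ran from 0.85- to 1.25-fold, and those of PHGDH and AHCY ran from 0.95-fold to at most 1.05-fold. In bulk RNA a lower value may stand for fewer cells with the transcript or for less RNA per cell, and these cannot be told apart.

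**Figure D2:**
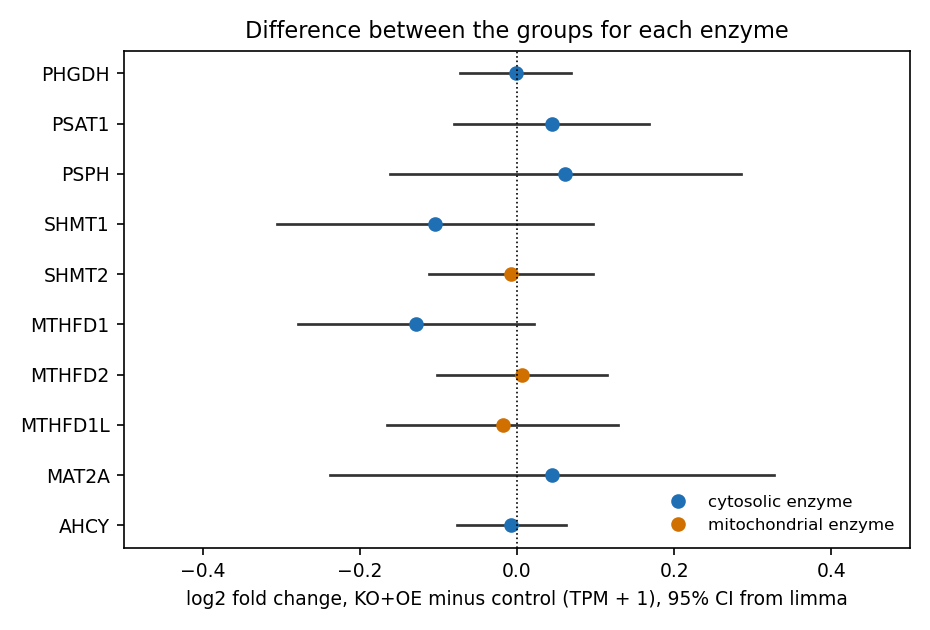
Log2 fold change of KO+OE against control on the scale log2(TPM + 1) for each enzyme, in the order of the pathway, with limma's 95% confidence interval (horizontal lines) and the compartment by colour. Every interval includes 0, and MTHFD1 lies farthest from it at -0.13.

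The balance between the mitochondrial and the cytosolic branch was then calculated within each library, where scaling of the library by a factor cancels. The 3 mitochondrial enzymes summed to 646 and 617 TPM in control and 623 and 634 TPM in KO+OE, which overlap. The cytosolic SHMT1 and MTHFD1 summed to 107.6 and 97.7 TPM in control and 95.7 and 92.6 TPM in KO+OE, which do not. The ratio of the sums was 6.0 and 6.3 in control and 6.5 and 6.8 in KO+OE. Both KO+OE libraries were therefore above both control libraries, with a difference of 0.12 on the log2 scale against a pooled SD of 0.05 within the groups. Single genes lay apart between the groups, in either direction, for 34.1% of all genes tested. No p-value is given for the ratio, whose genes were chosen with results known; an exact permutation test of 2 libraries against 2 cannot go below 0.333. The difference was 0.10 with SHMT2 to SHMT1 alone and 0.13 with MTHFD2 plus MTHFD1L to MTHFD1 alone, which are parts of the same ratio. Not every part separated the groups: MTHFD1 to MTHFD1L was 1.48 and 1.26 in control and 1.28 and 1.25 in KO+OE, which overlap. The difference in the full ratio was 0.08 with control replicate 1 left out and 0.15 with control replicate 2 left out. As both KO+OE ratios lay above both control ratios, leaving out a library could not turn the sign. Control replicate 1 had the lowest ratio and the highest SHMT1 and MTHFD1 of the 4 libraries.

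**Figure D3:**
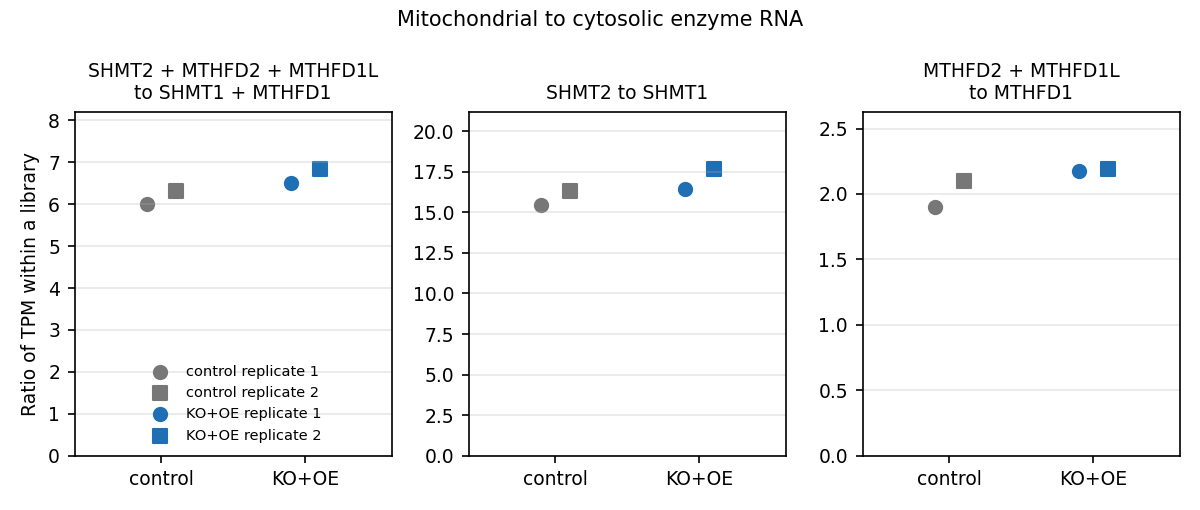
Ratio of summed TPM of mitochondrial to cytosolic enzymes within each library, for all 5 folate enzymes (left), the SHMT pair (middle) and the MTHFD enzymes (right), with the axis from 0 and 1 point per library. The KO+OE points (blue) lie above the control points (grey) in each panel, and the group means differ by 0.10 to 0.13 on the log2 scale. For the SHMT pair the nearest points are almost level, at 16.35 in control replicate 2 and 16.42 in KO+OE replicate 1.

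A further 39 genes of the same pathways were followed as a list. The filter on low values left 36 of them in the test. None passed an adjusted p of 0.05, and 3 passed an unadjusted p of 0.05, 1 higher and 2 lower in KO+OE, where 5.33% of 36 is close to 2 genes. The groups did not overlap for 12 of the 36, against 34.1% of all genes tested. KO+OE was the lower for 9 and the higher for 3 of them, where 19.6% and 14.5% of all genes tested did so. The median log2 fold change was -0.01. ALDH1L2, MTR and BHMT averaged under 1 TPM and stayed outside the test.

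Serine uptake and glycine cleavage held the gene with the lowest unadjusted p. DLD, the dihydrolipoamide dehydrogenase shared by the glycine cleavage system and the 2-oxoacid dehydrogenases, was 3.25 and 4.72 TPM in control and 2.22 and 2.08 TPM in KO+OE. Both KO+OE values were below both control values, with a log2 fold change of -0.65 (-1.13 to -0.16; limma, adjusted p = 0.928). KO+OE was below control without overlap for 5 of the 7 genes of this group, against 19.6% of all genes tested. That count was 3 of 8 in the cytosolic folate group, 1 of 10 in the methionine cycle and transsulfuration, and 0 among the 3 mitochondrial folate, 2 purine and 6 ATF4 genes tested. The 5 were DLD, SLC1A5, SFXN1, and the glycine cleavage genes AMT and GCSH, and the adjusted p of each was 0.928 or more (limma). Their highest value over the lowest was 2.27 for DLD, 1.04 for SLC1A5, 1.44 for SFXN1, 1.06 for AMT and 1.18 for GCSH. Genes of a group were measured in the same libraries and are not independent. SLC1A5, an importer of neutral amino acids, was 283 and 278 TPM in control and 274 and 271 TPM in KO+OE. For SFXN1, the mitochondrial serine carrier, the gap rests on control replicate 1, at 18.4 TPM, while control replicate 2 and both KO+OE libraries were between 12.8 and 13.1 TPM. GLDC, the decarboxylase of glycine cleavage, was 35.4 to 41.4 TPM and overlapped, with a log2 fold change of 0.00 (-0.23 to 0.23). SLC1A4 was 2.37 to 3.14 TPM and also overlapped, at 0.13 (-0.28 to 0.53).

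In the cytosolic folate group, MTHFS, which returns 5-formyl-tetrahydrofolate to the active pool, was 17.5 and 14.4 TPM in control and 12.6 and 12.5 TPM in KO+OE. The estimate, on the log2 scale, was -0.32 (-0.60 to -0.04; limma, adjusted p = 0.928). TYMS, which makes thymidylate, was the highest of this group at 75.9 and 77.3 TPM in control and 84.3 and 76.9 TPM in KO+OE. SLC19A1, the reduced folate carrier, was 26.6 to 29.1 TPM, while the folate receptor gene FOLR1 was between 1.02 and 1.94 TPM.

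The other mitochondrial folate genes were low. MTFMT, which formylates the initiator methionyl-tRNA of mitochondria, was the highest at 4.41 to 5.35 TPM, and the folate carrier SLC25A32 was 0.95 to 1.27 TPM. ALDH1L2, the mitochondrial formyl-tetrahydrofolate dehydrogenase, was listed at 0.13 to 0.21 TPM. All 3 tested genes of this group overlapped between the groups.

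In the methionine cycle and transsulfuration, CBS, which joins homocysteine to serine, was the highest gene at 185 and 182 TPM in control and 181 and 175 TPM in KO+OE. It was 12.2 to 15.6 times CTH, the enzyme of the next step. ADK, which removes the adenosine made by AHCY, was 6.97 and 6.66 TPM in control and 8.26 and 8.32 TPM in KO+OE, above control in both libraries, with a log2 fold change of 0.25 (0.01 to 0.49; limma, adjusted p = 0.928). The highest log2 fold change of the list was that of MTRR, the reductase that keeps MTR active, at 0.57 (-0.09 to 1.22; limma, adjusted p = 0.931). It was 1.16 and 2.40 TPM in control and 3.19 and 2.84 TPM in KO+OE, so the groups did not overlap and control replicate 1 was the lowest. MTR, which returns homocysteine to methionine with folate, was listed at 0.31 to 0.50 TPM, and BHMT, which does so with betaine, at 0.15 to 0.28 TPM.

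ATF4 is a transcription factor known to raise PHGDH, PSAT1, SHMT2 and MTHFD2 when amino acids are short. Its RNA was 345 and 365 TPM in control and 356 and 371 TPM in KO+OE, with a log2 fold change of 0.04 (-0.07 to 0.14). ASNS, the asparagine synthetase gene under its control, was 180.3 and 183 TPM in control and 192 and 185 TPM in KO+OE, above control without overlap, with a log2 fold change of 0.06 (-0.04 to 0.15). KO+OE lay above control in this way for 14.5% of all genes tested. Control and KO+OE overlapped for the other 5 ATF4 genes. None of the 6 genes of this group had an unadjusted p under 0.05. Of the purine enzymes that use formyl-tetrahydrofolate, ATIC was 199 to 200.1 TPM in 3 libraries and 189 TPM in KO+OE replicate 2, and GART was 37.5 to 45.0 TPM.

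**Figure D4:**
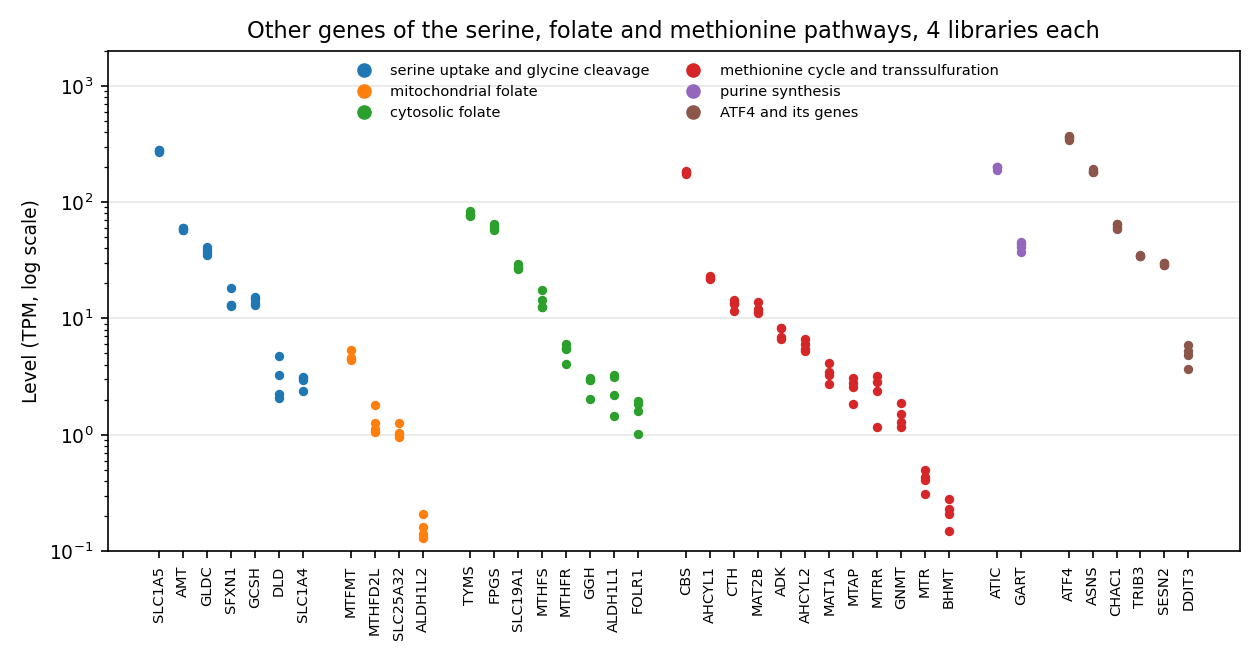
Level of each of the other 39 pathway genes in the 4 libraries, in TPM on a log axis, by group and ordered by mean level within a group, with 1 point per library. SLC1A5, CBS, ATIC, ASNS and ATF4 lie at 175 TPM or more, and MTR, BHMT and ALDH1L2 lie at 0.50 TPM or less.

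**Figure D5:**
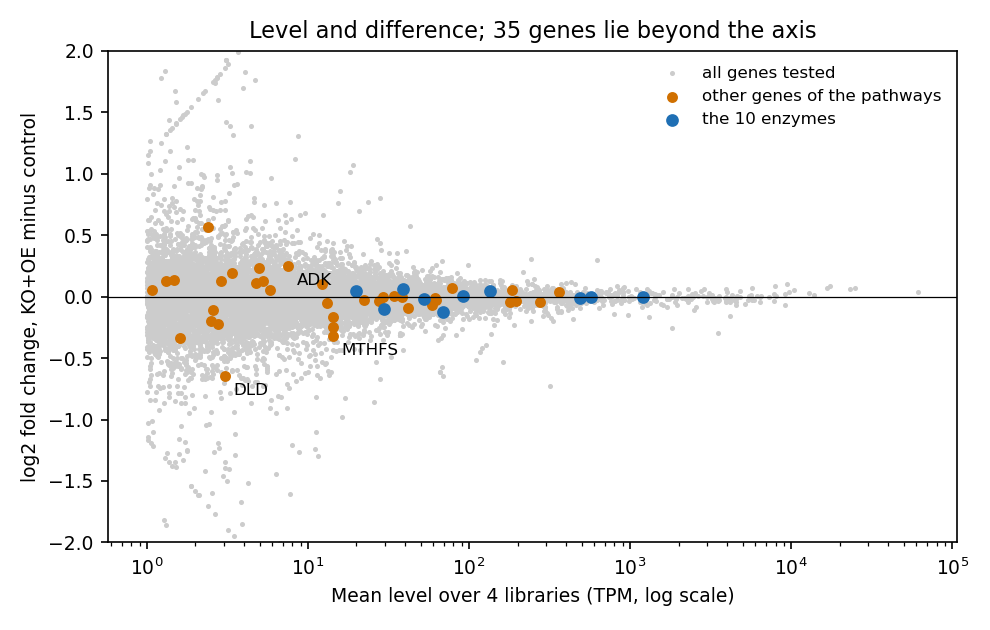
Mean level over the 4 libraries (TPM, log axis) and log2 fold change of KO+OE against control for all 12319 genes tested (grey), the 39-gene pathway list where tested (orange) and the 10 enzymes (blue); 35 genes lie beyond the axis limit of 2. The enzymes lie between -0.13 and 0.06, and DLD, MTHFS and ADK are named.

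Sequence and annotation limit how far levels of different genes can be read. The GC content of the canonical transcript was 58.1% for PHGDH, 56.1% for SHMT2 and 55.5% for AHCY, the 3 most abundant enzymes, and 41.0% to 51.9% for the other 7. Across the 10 genes the Spearman correlation between level and GC content was 0.48, the same in every library because the order of the genes was the same. It was 0.35 to 0.38 across the 46 tested genes of the members and the pathway list together. Across the 12147 tested genes with a GC content it was 0.26 to 0.28. This describes genes of the same libraries, which are not independent, and the part of GC content in the levels was not tested. Annotated pseudogenes named after a member had 20 rows, of which 18 were at 0 in all 4 libraries and the highest value was 0.13 TPM, and how reads with several matches were counted is not given in the sources used here. Exons of MAT2A share 562 bases with exons of GGCX on the opposite strand, which was 15.9 to 19.1 TPM. Exons of MTHFD1 share 1556 bases with ENSG00000272909, listed at 0.07 TPM or less, and 178 bases with ZBTB25, at 3.20 to 4.21 TPM. Exons of MTHFD2 share 1324 bases with SLC4A5, at 0.96 TPM or less. These genes also lie on the opposite strand, and SHMT1, SHMT2 and AHCY have shorter overlaps. The protocol does not say whether strand was kept, and how reads in the shared bases were counted was not tested. The value of MAT2A may therefore hold reads of GGCX or lack reads of its own, and the other overlapping enzymes, MTHFD1 among them, may lack reads too.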

How the data were processed

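RNA-seq of poly(A)-selected RNA was analysed in 4 libraries of H9 cells, 2 control and 2 KO+OE, grouped by sample title. Per the submitters' processing notes, HISAT2, featureCounts of Subread, DESeq2 and hg38 were used; roles, versions and annotation release are not given in the sources used here. The authors deposited 1 value per gene and library without a unit, read as TPM because every column holds decimals and sums to nearly the same total. The table holds 0 other per-sample columns. TPM holds no counts, so DESeq2 could not be run.

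After transformation to log2(TPM + 1), which understates the change of low genes, the 12319 genes averaging 1 TPM or more were compared with limma 3.58.1 (lmFit, eBayes with a mean-dependent prior, two-sided, group only) in R 4.3.3, with Benjamini-Hochberg adjustment over all of them. Intervals are limma's at 95%. The fit was first tested on simulated data with known answers. The members and lists were chosen with earlier results of these data known. Named are all members and, of the pathway list, the highest gene of each group and those with an unadjusted p under 0.05. A further gene of that list is not reported here. Other pathway genes were named after their values were seen. Positions and promoter windows are RefSeq's on GRCh38.p14; transcript GC content and overlaps came from GENCODE 44 on GRCh37, by Ensembl identifier. Alternatives were other pseudocounts (0.1, 5), filters (none, 5 TPM) and scalings (median ratios, quantiles, removal of mitochondrial-genome genes), blocking on the replicate number, a constant variance prior, and each library left out. Python 3.11.15, pandas 2.3.3, numpy 2.4.6, scipy 1.17.1 and matplotlib 3.10.9 were used.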

Additional observations from a re-analysis of the deposited data

How the results depend on the processing

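No enzyme passed an adjusted p of 0.05 in any of the 13 alternatives with a limma fit, where the lowest adjusted p was 0.873. The log2 fold changes of PHGDH, SHMT2 and AHCY, near 0, turned to 0.011, 0.0053 and 0.0055 with median-ratio rescaling and to 0.013, 0.0069 and 0.0071 without mitochondrial-genome genes; that of PHGDH also turned to 0.027 with quantile normalization. When 1 library was left out, with the lone library assumed to vary like the other group, the sign turned for 7 of the 10. The values ran from -0.024 to 0.020 for PHGDH, -0.053 to 0.038 for SHMT2, -0.022 to 0.0076 for AHCY, -0.015 to 0.027 for MTHFD2 and -0.075 to 0.038 for MTHFD1L (each between the fits without either control replicate), and from -0.048 to 0.17 for PSPH and -0.098 to 0.19 for MAT2A (without KO+OE replicates 1 and 2). SHMT1, MTHFD1 and PSAT1 kept their sign in all alternatives. The number of enzymes at an unadjusted p under 0.05 ran from 0 to 1, the 1 being MTHFD1 without control replicate 2. Of the pathway list that number went from 3 to 1 when genes averaging under 5 TPM, DLD among them, were left out. MTHFS and ADK, with means of 14.2 and 7.55 TPM, stayed in the test, so removal of genes does not account for the whole fall. Other causes were not tested. The replicate number did not pair the libraries: deviations of same-numbered libraries correlated at -0.049 over 12319 genes. With the replicate block, 0 enzymes and 2 pathway genes had an unadjusted p under 0.05. As the depth is unknown, counting error cannot be separated from the rest of the spread between libraries, and intervals were widest for genes at a few TPM.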
